A study of Mus musculus with 4 samples.

Results

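Expression of 10 genes used as markers of neutrophils was followed in livers of mice that had YAP, the Hippo pathway coactivator, or lacked it, before and after an overdose of acetaminophen. The genes are S100a8, S100a9, Retnlg, Csf3r, Clec4e, Ly6g, Camp, Ngp, Mpo and Elane, taken by name from the 30637 genes that the array's annotation names. Each had 1 probe set of its own, so no choice between probe sets was needed. There were 4 single-channel arrays, each holding total RNA of liver lysate pooled from 3 male mice, and all mice were fasted before the 0 h livers were taken or acetaminophen was given. The wildtype 0 h group carried floxed YAP without knockout and was not given the overdose, and the YAP-KO 0 h group lacked YAP and was likewise not given it. The wildtype 24 h group, also floxed, and the YAP-KO 24 h group received 300 mg/kg acetaminophen into the peritoneum 24 h before the liver was taken. The sources used here give neither the promoter that drives deletion nor the cells that lost YAP, nor the age and strain of the mice. No group at 24 h without acetaminophen was used here, so drug, elapsed time and handling cannot be told apart.

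Neutrophils are short-lived phagocytes made in bone marrow that enter the liver through its sinusoids after injury, drawn by CXC chemokines. They build their granules in stages. Myeloperoxidase and elastase genes are transcribed in promyelocytes, cathelicidin-type granule genes in later marrow precursors, and cells in blood and tissue have largely shut these genes off while keeping abundant transcripts of the S100 alarmins and of surface receptors. After acetaminophen, neutrophils gather in and around the necrotic centrilobular zones of mouse liver.

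The 5 genes that stood 2-fold or more above their 0 h value in wildtype liver at 24 h are shown first by the 250 bases before their annotated start (RefSeq, GRCm38.p6), since these members were higher together. The windows are chr3:90668821-90669070 on the + strand for S100a8, chr3:90695722-90695971 on the - strand for S100a9, chr16:48872358-48872607 on the + strand for Retnlg, chr4:126024409-126024658 on the + strand for Csf3r and chr6:123289872-123290121 on the - strand for Clec4e. Capitals mark matches, on either strand, to TTGCNNAA (a core bound by C/EBP factors, N being any base), to GAGGAAG (a core bound by PU.1) and to TATAAA (the TATA box); no match overlapped another.
S100a8: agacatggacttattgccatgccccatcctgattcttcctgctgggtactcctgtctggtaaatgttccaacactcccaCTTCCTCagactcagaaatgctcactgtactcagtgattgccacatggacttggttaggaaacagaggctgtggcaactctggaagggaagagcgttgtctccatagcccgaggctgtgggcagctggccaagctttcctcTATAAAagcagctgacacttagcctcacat
S100a9: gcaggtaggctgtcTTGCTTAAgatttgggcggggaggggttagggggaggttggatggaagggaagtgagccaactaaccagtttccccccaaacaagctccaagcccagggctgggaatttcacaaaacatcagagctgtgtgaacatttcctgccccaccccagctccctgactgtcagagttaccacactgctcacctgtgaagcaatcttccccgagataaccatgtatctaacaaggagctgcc
Retnlg: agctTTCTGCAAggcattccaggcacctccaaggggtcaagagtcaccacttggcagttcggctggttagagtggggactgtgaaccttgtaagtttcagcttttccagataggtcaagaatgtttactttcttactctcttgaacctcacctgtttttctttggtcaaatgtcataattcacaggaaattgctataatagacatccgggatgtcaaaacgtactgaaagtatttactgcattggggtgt
Csf3r: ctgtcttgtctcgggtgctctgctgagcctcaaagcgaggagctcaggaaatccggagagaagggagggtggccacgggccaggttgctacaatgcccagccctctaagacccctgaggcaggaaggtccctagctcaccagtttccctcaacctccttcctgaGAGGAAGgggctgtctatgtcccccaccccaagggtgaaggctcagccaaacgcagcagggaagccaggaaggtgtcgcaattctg
Clec4e: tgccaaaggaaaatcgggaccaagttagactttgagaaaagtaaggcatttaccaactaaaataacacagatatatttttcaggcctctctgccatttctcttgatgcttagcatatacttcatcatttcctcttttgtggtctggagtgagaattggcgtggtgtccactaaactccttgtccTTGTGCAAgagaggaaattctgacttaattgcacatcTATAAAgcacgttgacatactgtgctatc

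The C/EBP core occurred in the windows of S100a9, Retnlg and Clec4e above, and also in those of Ngp and Ly6g, so that 5 of 10 members held it against 9.56% of 32851 windows of that length. The PU.1 core occurred for S100a8 and Csf3r and also for Ly6g, Mpo and Elane, again 5 of 10, against 10.61%. TATAAA occurred for S100a8, Clec4e and Ly6g, 3 of 10 members, against 12.37%. Both cores were found in members with higher values at 24 h and in members without, and no match in a window says only that those letters are not there. All 10 members were in the promoter table, Ly6g with 2 starts. A member was counted if any of its windows held a match, whereas the percentages are of single windows. Ly6g, counted for all 3 motifs, thus had 2 windows in which to match.

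In wildtype liver 5 of the 10 neutrophil marker genes were at least 2-fold higher at 24 h than at 0 h, and 0 were 2-fold lower. The 5 were the alarmin genes S100a8 (25.1-fold) and S100a9 (13.6-fold), the secreted resistin-like gene Retnlg (17.4-fold), the G-CSF receptor gene Csf3r (3.58-fold) and the lectin receptor gene Clec4e (2.38-fold). Of all 18386 named genes kept above a low-signal filter, 12.7% were 2-fold higher and 5.92% 2-fold lower in that comparison. In YAP-KO liver the same direction was seen with smaller differences: 3 of 10 members were 2-fold higher, against 4.72% of all genes, and 0 were lower, against 2.22%. At 24 h 4 members were at least 2-fold lower in YAP-KO than in wildtype, against 5.75% of all genes, and 0 were higher, against 3.25%. The granule genes Ngp, Mpo and Elane stayed at the low end of the array in every sample.

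Values are the authors' probe-set values on a scale taken from their range to be log2, on which 1 unit is 2-fold; the base is not stated. A gene is called dim where its mean over the 4 arrays lies below the 40th percentile of named genes (4.32). With 1 array per group no difference below has a replicate check, and the number of arrays limits precision. All 4 arrays had the hepatocyte genes Alb, Apoa1 and Ttr at or next to their highest value, 19.83 to 19.93, so the defining transcripts of liver were present. Yap1 read 7.54 (wildtype) and 6.31 (YAP-KO) before the overdose, then 8.24 and 6.01, so it was lower on both YAP-KO arrays; which part of the gene was deleted is not stated. The arrays' medians over genes above the filter were 6.43 on both 0 h arrays, 6.69 on the wildtype and 6.58 on the YAP-KO 24 h array. Over all probe sets the 24 h medians were instead the lower: 4.47 (wildtype) and 4.46 (YAP-KO) at 0 h, 4.32 and 4.36 at 24 h. Where array medians are made equal below, the medians are those over genes above the filter.

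**Figure D1:**
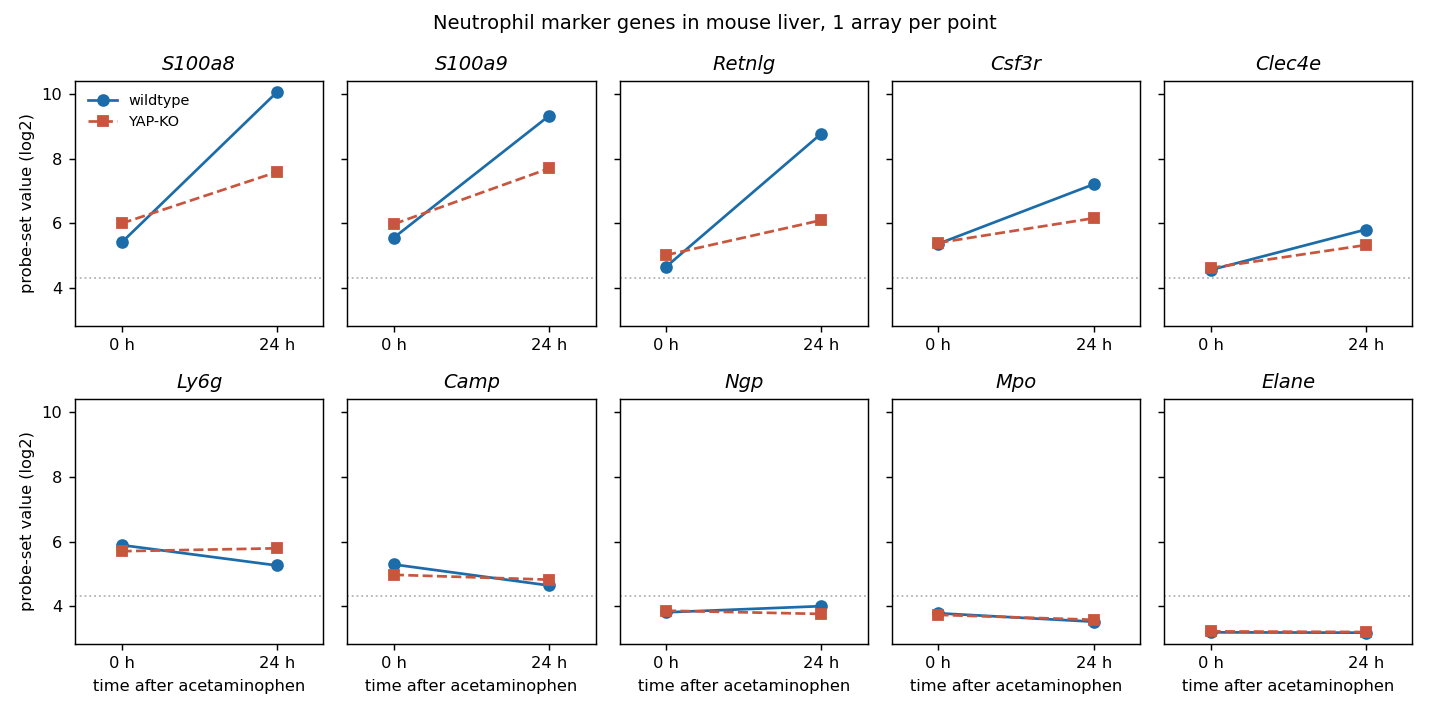
Probe-set values (log2) of the 10 neutrophil marker genes at 0 h and 24 h; each point is 1 array of RNA pooled from 3 mice, circles and solid lines are wildtype, squares and dashed lines YAP-KO, and the dotted line is the low-signal filter at 4.32. The upper 5 genes are highest on the wildtype 24 h array, Ly6g and Camp are lowest there, and Ngp, Mpo and Elane lie below the dotted line.

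S100a8 and S100a9 encode the subunits of calprotectin, a calcium- and zinc-binding protein that fills the neutrophil cytosol and is also made by monocytes. S100a8 read 5.41 on the wildtype and 6.0 on the YAP-KO array at 0 h, and 10.06 and 7.59 on those at 24 h. S100a9 read 5.56, 5.98, 9.33 and 7.70 in the same order. Both genes had the same order of arrays: wildtype 0 h lowest, then YAP-KO 0 h, then YAP-KO 24 h, with wildtype 24 h highest. The 24 h minus 0 h difference of S100a8 was 4.65 in wildtype and 1.59 in YAP-KO, and that of S100a9 was 3.77 and 1.72. At 24 h the YAP-KO minus wildtype difference was -2.47 for S100a8 (5.54-fold lower) and -1.63 for S100a9 (3.10-fold lower). In wildtype the S100a8 difference was at rank 40 and that of S100a9 at rank 82 of 18386 genes, counted from the highest. In YAP-KO S100a9 stood above S100a8, at ranks 142 and 180. The 2 genes are neighbours on chromosome 3 in RefSeq, with no other annotated gene between them.

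Retnlg encodes resistin-like gamma, a small secreted protein found in mouse neutrophils and marrow. At 0 h it read 4.66 (wildtype) and 5.02 (YAP-KO), and at 24 h 8.78 and 6.10. Its difference between times was 4.12 in wildtype (rank 63) and 1.08 in YAP-KO (rank 695, 2.11-fold). Of the 10 members it had the largest gap between genotypes at 24 h: it was 6.41-fold lower in YAP-KO, where 74 of 18386 genes had a difference as low or lower. Its paralogs Retn, Retnla and Retnlb were dim, and 0 of 3 differed 2-fold in any comparison.

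Among the receptors, Csf3r binds G-CSF, the cytokine that drives neutrophil production and release. At 0 h it read 5.37 (wildtype) and 5.4 (YAP-KO), and at 24 h 7.21 and 6.16. The 0 h arrays were nearly level and the wildtype 24 h array was highest, with differences of 1.84 in wildtype and 0.76 in YAP-KO. Its 24 h gap between genotypes was -1.05, close to the 2-fold line, and it lay inside 2-fold once array medians were made equal (-0.94) or after quantile normalization (-0.87). Clec4e encodes Mincle, a C-type lectin that senses dead cells and microbial glycolipids and is found on macrophages as well as neutrophils. In wildtype it went from 4.56 to 5.81, and in YAP-KO from 4.62 to 5.33. The Clec4e difference was 1.25 in wildtype, or 0.99 after array medians were made equal, and 0.71 in YAP-KO, and its gap at 24 h was -0.48.

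Ly6g, the surface antigen by which mouse neutrophils are usually sorted, did not follow the alarmins. It went from 5.89 to 5.26 in wildtype and from 5.70 to 5.79 in YAP-KO. The wildtype 24 h array, on which S100a8, S100a9 and Retnlg were highest, was its lowest, with a difference of -0.63 in wildtype and 0.09 in YAP-KO (-0.06 with equal array medians). Ly6g belongs to a family of closely similar genes whose signals the array may not separate. Of 7 other Ly6 genes measured, Ly6d was higher at 24 h in wildtype (4.37) and in YAP-KO (3.23). The monocyte antigen gene Ly6c2 was 0.65 higher in wildtype and 2.14 higher in YAP-KO, and Ly6e was 0.53 higher in YAP-KO than in wildtype at 24 h.

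The granule genes showed no 2-fold difference in any comparison. Camp, the precursor of the antimicrobial peptide cathelicidin, read 5.29 and 4.97 on the 0 h arrays (wildtype, then YAP-KO) and 4.64 and 4.82 on those at 24 h. Its wildtype 24 h value was its lowest, with a difference from 0 h of -0.65, and its genotype gap at 24 h was 0.18. Ngp, a cathelicidin-related granule protein gene, read 3.81, 3.86, 4.0 and 3.76 in the same order. Mpo, encoding myeloperoxidase, read 3.78, 3.73, 3.52 and 3.58, and Elane, encoding neutrophil elastase, 3.19, 3.22, 3.18 and 3.20. These 3 genes were dim on all arrays; the signs of their small differences turned with the scaling, and as there are no detection calls, these transcripts may not have been detected at all.

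Before the overdose the genotypes were close for most members. S100a8 was 0.59 higher in YAP-KO (1.51-fold), S100a9 0.42 and Retnlg 0.36, while Camp (-0.32) and Ly6g (-0.19) were lower. The other 5 members differed by 0.06 or less. At 0 h 0 of 10 members reached 2-fold in either direction, against 1.01% of all genes higher and 0.881% lower in YAP-KO. The starting level therefore mattered most for S100a8, whose 24 h difference was 4.06 for wildtype measured from the YAP-KO 0 h array and 2.18 for YAP-KO measured from the wildtype 0 h array.

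**Figure D2:**
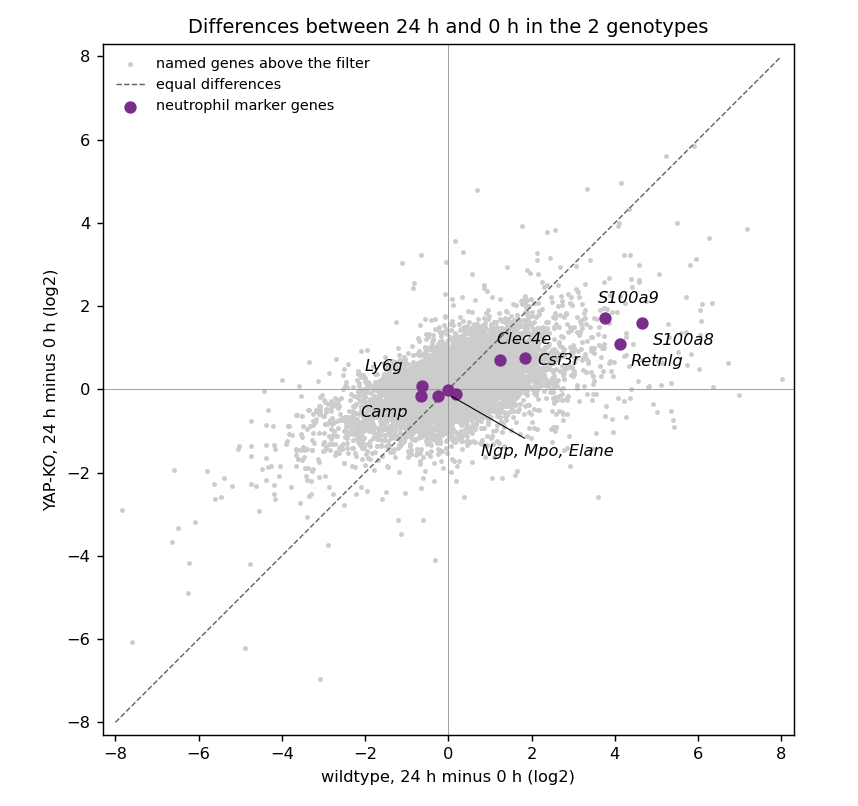
Differences between 24 h and 0 h (log2) in wildtype (horizontal) and YAP-KO (vertical), each from a pair of arrays; grey points are the 18386 named genes above the filter, purple points the 10 neutrophil marker genes, and the dashed line marks equal differences. S100a8, S100a9, Retnlg, Csf3r and Clec4e lie right of 0 and under the dashed line, and the others lie near the origin.

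The difference between the genotypes' 24 h responses was -3.06 for S100a8, -3.04 for Retnlg, -2.05 for S100a9, -1.08 for Csf3r and -0.54 for Clec4e. Thus 4 of 10 members were at least 2-fold lower in this comparison, against 7.51% of all genes, and 0 were 2-fold higher, against 5.69%. With equal array medians 3 were lower, against 6.16% of all genes, and with quantile normalization 3, against 6.4%. Csf3r then lay inside 2-fold, at -0.97 and -0.94. Ly6g (0.72) and Camp (0.50) had the opposite sign. All 5 comparisons draw on the same 4 arrays, so a high wildtype 24 h value enters 3 of them. At 1.5-fold, 5 of 10 members were higher between times in wildtype (23.2% of all genes) and 2, Camp and Ly6g, were lower (12%). In YAP-KO S100a8, S100a9, Retnlg, Csf3r and Clec4e, 5 in all, were higher (13.5%) and 0 lower (6.03%). Between genotypes 1 member, S100a8, was 1.5-fold higher in YAP-KO at 0 h (3.44%) and 0 lower (4.87%), and at 24 h 0 were higher (8.26%) and 4 lower (13.4%). In the difference of responses Ly6g was 1.5-fold higher (13.8%) and 4 members lower (16.4%).

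Over all 10 members the median difference was 0.72 in wildtype and 0.40 in YAP-KO between times, where all genes had 0.07 in each. The members' median between genotypes was 0.04 at 0 h and -0.36 at 24 h, against -0.03 and -0.02 for all genes. That median falls between members that differed widely and members that did not, so it describes neither set.

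The fit run on these arrays was limma with genotype and time as additive terms, in which the error is the interaction, with 1 residual degree of freedom. For the 7 members above the filter it called 0 at a Benjamini-Hochberg adjusted p under 0.05 for time and 0 for genotype, and 0% of all genes were called for either term. The lowest adjusted p of a member was 0.292, for time, in S100a9, whose mean 24 h difference over both genotypes was 2.75 with a standard error of 0.60 in that limma fit. At an unadjusted limma p under 0.05 it marked 4 of 7 members for time (S100a8, S100a9, Csf3r and Clec4e), against 15.3% of all genes, and 0 for genotype, against 2.36%. A gene whose genotypes respond unequally, as S100a8 and Retnlg did, has a large error in this fit. Since the arrays hold bulk RNA, fewer neutrophils and less of a transcript per neutrophil cannot be told apart.

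Other genes of mature neutrophils showed the pattern in part. Of 16 measured, 8 differed upward by 2-fold or more between times in wildtype and 2 in YAP-KO, with medians of 1.0 and 0.13, and 0 were lower in either. Some of these lay close to the 2-fold line: with equal array medians 5 were higher in wildtype and 1 in YAP-KO, and 1 was lower in wildtype. Il1r2, the decoy receptor for interleukin 1, was 2.52 higher in wildtype, from a 0 h value of 4.25 that lay below the filter level, against -0.21 in YAP-KO. The stefin gene Stfa2l1 was 2.33 and 1.02 higher, and Il1b, the interleukin 1 beta gene, 1.86 and 0.62. G0s2, a lipase inhibitor gene also active in hepatocytes, was 2.15 in wildtype against -0.49 in YAP-KO. The 8 within 2-fold in wildtype included Cxcr2 (0.58, and 0.17 in YAP-KO), which was above the filter. Mmp9 (0.45 and 0.18), Pglyrp1 (-0.11 and -0.30), Asprv1 (0.05 and 0.05) and Padi4 (-0.06 and 0.00) were also within 2-fold but dim. These genes within 2-fold were named after their values were seen. At 24 h 4 of 16 were at least 2-fold lower in YAP-KO and 2 were higher. The 2 higher, named after their values were seen, were Lrg1 (1.58), which hepatocytes make in the acute phase, and Wfdc21 (1.31). Slpi, also of this list, is not counted because its probe set is annotated to several genes. That probe set, likewise given after values were seen, read 4.77 (wildtype) and 4.32 (YAP-KO) at 0 h, and 6.86 and 5.07 at 24 h.

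Of 9 further granule genes of precursors, 3 were above the filter and 2 were 2-fold higher in wildtype at 24 h. Mmp8, the neutrophil collagenase gene, went from 4.23, below the filter level, to 6.91 in wildtype and from 4.45 to 4.89 in YAP-KO. It was thus higher mainly on the wildtype 24 h array, with a genotype gap of -2.02. Lcn2, which encodes lipocalin 2 and is also an acute phase gene of hepatocytes, read 5.43, 8.11, 11.70 and 11.74, with no gap between genotypes at 24 h. The protease genes Prtn3 (0.29 in wildtype, 0.70 in YAP-KO) and Ctsg (-0.24 and 0.21), which accompany Elane in azurophil granules, were within 2-fold between times. The list's median was -0.19 in wildtype and 0.08 in YAP-KO, but it rests mostly on dim genes, Ctsg among them.

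Of 9 neutrophil attractants and growth factors, 4 were 2-fold higher in wildtype at 24 h and 0 in YAP-KO. Cxcl1, a ligand of the neutrophil receptor CXCR2, went from 6.29 to 12.31 in wildtype and from 10.79 to 11.28 in YAP-KO. It was already high on the YAP-KO 0 h array, where S100a8 and S100a9 were 1.51-fold and 1.34-fold above wildtype. Cxcl2 read 6.24 on the wildtype 24 h array and 3.89, 3.91 and 4.08 on the others, all below the filter level of 4.32, so it passed the filter through that 1 array and the size of its difference is uncertain. Ppbp was 2.14 higher in wildtype against 0.39 in YAP-KO, and Cxcl3, also below that level on the wildtype 0 h array, 1.66 against 0.13. At 24 h the same 4 genes were 2-fold lower in YAP-KO, with gaps from -1.03 to -2.16, and 2 of them, Cxcl2 and Ppbp, were still 2-fold lower with equal array medians or quantile normalization. The list medians were 0.09 and 0.01, since Csf3, Csf2, Il6, Il17a and Cxcl5 were within 2-fold. Of these, Csf3, Csf2, Il6 and Il17a were dim and may not have been detected at all. Their small differences, and the list medians that rest on them, therefore say little.

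Adhesion genes were higher at 24 h in both genotypes, 7 of 9 by 2-fold in wildtype and 4 of 9 in YAP-KO, with medians of 1.64 and 0.71. Itgam, the integrin alpha M chain carried by neutrophils and monocytes, was 2.59 and 1.58 higher, the platelet and endothelial selectin gene Selp 2.18 and 0.71, and the endothelial ligand gene Vcam1 1.64 and 0.66. At 24 h Selp alone of this list was 2-fold lower in YAP-KO (-1.33). NADPH oxidase genes had medians of 0.55 and 0.49 over 5 measured genes. Of these, Cybb, the catalytic subunit gene, was 1.53 and 1.04 higher, Rac2 was 1.05 and 0.89 higher, and Ncf1 0.55 and 0.14. At 24 h 0 of 5 oxidase genes differed 2-fold between genotypes (median -0.20).

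Of the receptors for S100a8 and S100a9, Cd33 was 1.94 higher in wildtype and 0.43 in YAP-KO, Tlr4 1.0 and 0.31, and Ager -0.32 and -0.23. Of 6 Clec4e partners, Clec4d, the lectin gene beside it, was 1.75 and 0.54 higher and the adaptor gene Fcer1g 2.37 and 1.47, whereas Syk was 0.66 and 0.12. Among 11 other S100 genes, S100a10 was 3.31 higher in wildtype and 0.41 in YAP-KO, S100a1 was -1.28 and -0.51, and S100a13 was -0.34 and -0.02. The list's median was -0.13 in wildtype and -0.02 in YAP-KO, and 9 of 11 were within 2-fold in wildtype. S100a11 is not in these counts because its probe set is annotated to several genes. That probe set, given after values were seen, read 9.41 (wildtype) and 9.83 (YAP-KO) at 0 h, and 14.61 and 13.18 at 24 h.

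**Figure D3:**
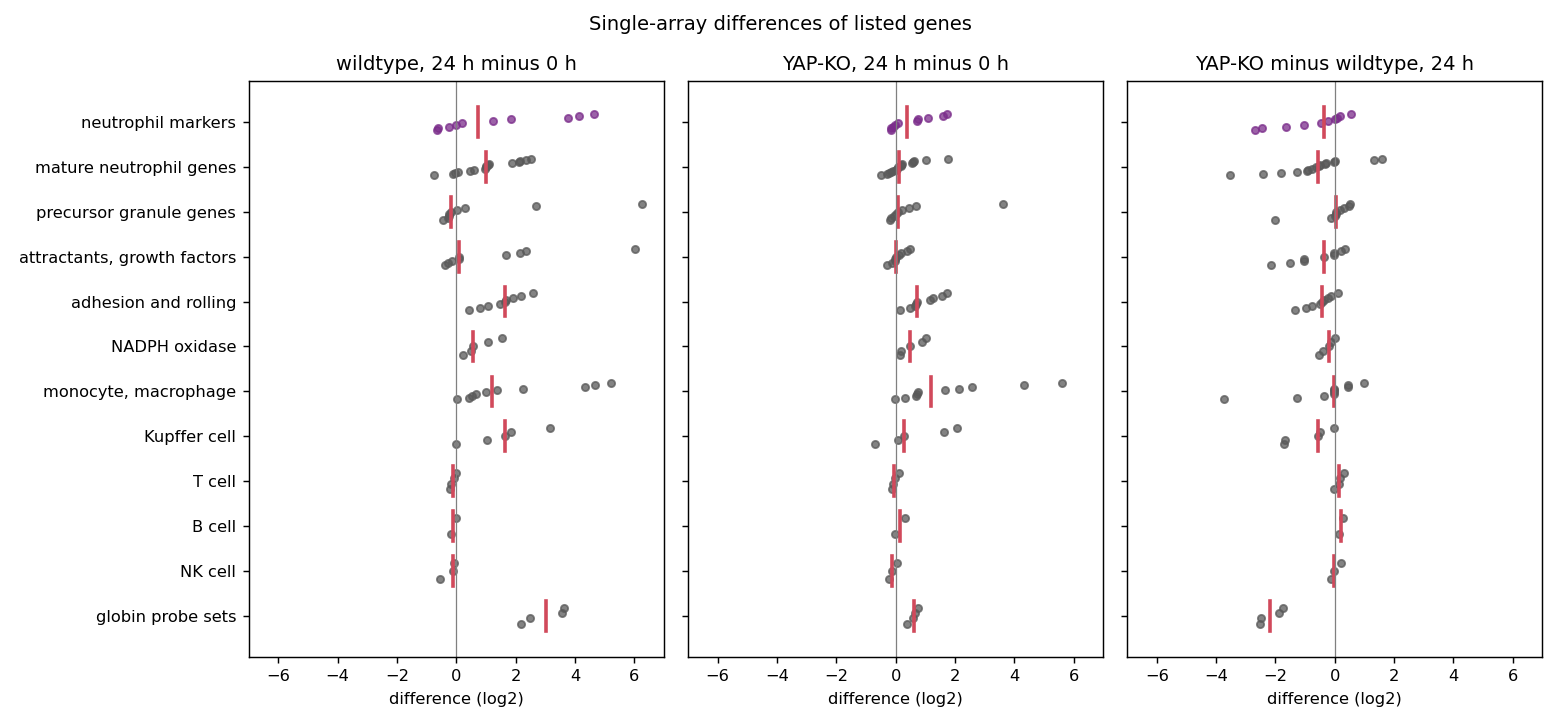
Differences (log2) of listed genes for wildtype 24 h minus 0 h, YAP-KO 24 h minus 0 h and YAP-KO minus wildtype at 24 h; each dot is a gene (in the last row a globin probe set), the vertical offset only separates dots, and the red bar is the row's median. Between genotypes at 24 h the neutrophil markers have a median of -0.36 and reach down to -2.68, and the monocyte and macrophage markers have a median of -0.03 and reach down to -3.73 (Cd14).

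Markers of other cells were set beside these values. The leukocyte gene Ptprc read 6.49 and 6.5 at the start and 7.72 and 7.58 after the overdose, so its genotype gap at 24 h was -0.14 where that of S100a8 was -2.47. Of 10 monocyte and macrophage markers 5 were 2-fold higher at 24 h in each genotype, with medians of 1.19 in wildtype and 1.20 in YAP-KO. Cd68 (4.33 and 4.34), Chil3 (5.22 and 5.61) and Lyz2 (2.26 and 2.57) were close between genotypes, whereas Cd14 (4.66 and 0.71) and Csf1r (0.99 and -0.03) were not. Chil3 read 4.26 on the YAP-KO 0 h array, below the filter level, so the size of its YAP-KO difference is uncertain. Between genotypes at 24 h 2 of the 10 were 2-fold lower in YAP-KO. The gap of Cd14 (-3.73) exceeded that of any neutrophil marker. Going the other way, Ly6c2 (0.97), Ccr2 (0.46) and Cx3cr1 (0.43) were higher in YAP-KO, with 3 of 10 above 0 and 7 below. None reached 2-fold higher, but 1 did with equal array medians or quantile normalization. The list's mean level went from 6.43 to 8.47 in wildtype and from 6.23 to 8.11 in YAP-KO, against 4.75 to 6.18 and 4.85 to 5.4 for the 10 neutrophil markers. S100a8, S100a9 and Clec4e are also transcribed in monocytes or macrophages, and the part of those cells in their values was not tested. The part of neutrophils in the values of the monocyte and macrophage markers, Chil3 and Lyz2 among them, was not tested either. Equal values of those markers therefore do not show equal numbers of monocytes.

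Of 5 Kupffer cell markers 4 were 2-fold higher at 24 h in wildtype (3 with equal array medians) and 2 in YAP-KO. Their median gap at 24 h was -0.58 in YAP-KO against wildtype. At 24 h 2 of the 5 were 2-fold lower in YAP-KO, Vsig4 (-1.70) and Marco (-1.67), gaps of the size of that of S100a9 (-1.63). Vsig4 was 1.65 higher between times in wildtype and 0.08 in YAP-KO, and Marco 3.16 and 1.64. Cd5l was 1.85 and 2.08 higher, with a genotype gap of -0.01 at 24 h. Timd4 was 1.02 and 0.28 (gap -0.50), and Clec4f 0.00 and -0.70 (gap -0.58). The part of Kupffer cells in the neutrophil values was not tested. The 2 alpha globin and 2 beta globin probe sets, each annotated to several globin genes and examined after values were seen, were 2.17 to 3.61 higher in wildtype at 24 h and 0.40 to 0.76 higher in YAP-KO. Their YAP-KO minus wildtype differences at 24 h were -1.73 to -2.52, a gap of the size seen for S100a8 and S100a9. Alas2, the erythroid heme synthesis gene, moved the other way, at -2.24 in wildtype and -1.86 in YAP-KO. Of 3 platelet markers Pf4 was 1.42 higher in wildtype and 0.00 in YAP-KO, whereas Itga2b (-0.06 and -0.04) and Gp9 (0.08 and 0.18) were within 2-fold. The part of blood left in the liver in the neutrophil values was not tested.

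No 2-fold difference was seen in any comparison for 4 T cell, 2 B cell, 3 NK cell, 5 eosinophil and mast cell, and 4 dendritic cell markers. Most of these markers lay near or below the filter, so the arrays say little about those cells. Of 4 endothelial markers 2 were 2-fold higher in wildtype at 24 h (1 with equal array medians). They were the sinusoidal and lymphatic gene Lyve1 (5.51, against 0.89 in YAP-KO) and Pecam1 (1.13, against 0.94). Stab2 (0.15 and 0.60) and Clec4g (-0.26 and -0.23) were within 2-fold. Of 3 stellate cell markers 1 was higher and 1 lower in wildtype and 0 differed in YAP-KO (1 lower with equal array medians), and of 3 cholangiocyte markers 1 was higher in each genotype. Of 4 hepatocyte markers 0 differed 2-fold, and they lay at or near the arrays' upper limit.

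Across all named genes above the filter, those whose values minus their own mean lay nearest to S100a8 over the 4 arrays were Pgm2 (Euclidean distance 0.34), Pkm (0.43), Cd93 (0.45), Hmox1 (0.46) and Elovl7 (0.48). S100a8 was taken for this because its mean was the highest of the members. Pgm2 read 7.14, 7.52, 11.42 and 8.87, against 5.41, 6.0, 10.06 and 7.59 for S100a8. Retnlg was at 0.57, with 7 genes nearer, and S100a9 at 0.71, with 15 genes nearer. Csf3r (2.12) and Clec4e (2.59) were farther because their differences were smaller, with 524 and 1371 genes nearer, and Ly6g (4.04) and Camp (4.04) had 16096 and 16110 genes nearer. Genes outside the list thus lay nearer to S100a8 than any other member did, and over 4 points the distance is a description.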

How the data were processed

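Liver RNA of 4 groups (genotype by time) was measured on 1 array each, a pool of 3 mice. The deposited log2 values carry no statement of summarisation, background correction or normalization; the log2 scale was inferred from their range (2.24 to 19.93), and the labels name the WT Plus labelling kit only. Of 65956 probe sets, the platform annotation gives 1 gene for 31095 and several for 1655, with symbols updated through Entrez identifiers to RefSeq (GRCm38.p6), and none for 33206. The brightest probe set stood for a gene, and 18386 of 30637 genes lay at or above the 40th percentile of means (4.32). All 10 members were described, filtered or not; the share of genes called refers to genes above the filter. Members and lists were chosen with earlier results of these data known. Beyond members, genes were named as the up to 3 of each list with the largest genotype gap at 24 h and the up to 2 with the largest wildtype difference; markers of other cells and counts of 5 or fewer were named after their values were seen. Differences used Python 3.11.15 and the additive fit limma 3.58.1 in R 4.3.3, tested on simulated data. Arrays with equal medians, quantile normalization, probe-set means, other filters, 1.5-fold and the other 0 h array were the alternatives.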

Additional observations from a re-analysis of the deposited data

Results flagged for a closer look

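Genes whose 24 h differences had opposite signs in the genotypes are listed here; with 1 array per group the difference between genotypes was not tested. Among the members, Ngp was 0.19 in wildtype and -0.10 in YAP-KO, and Ly6g was -0.63 and 0.09. Both YAP-KO values are small, and that of Ly6g is -0.06 with equal array medians. Among the other named genes, Il1r2 (2.52 and -0.21) and G0s2 (2.15 and -0.49) had wildtype differences beyond 2-fold. Ctsg (-0.24 and 0.21) and Retnlb (-0.06 and 0.07) were dim, and so close to 0 that their signs carry little.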

How the results depend on the processing

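No paired analysis was possible because each group held a single array. All 10 members gave a value under each alternative. Making array medians equal moved the median difference of all genes by -0.26 in wildtype and -0.15 in YAP-KO between times and by 0.11 between genotypes at 24 h. The share of higher among 2-fold calls then went from 68.1% to 48.2% in wildtype and from 68.0% to 49.5% in YAP-KO between times, from 36.1% to 47.5% between genotypes at 24 h and from 43.1% to 54.1% in the responses' difference. With quantile normalization it was 57.6% in wildtype and 48.7% between genotypes at 24 h. With equal medians 4 members were 2-fold higher in wildtype, 2 in YAP-KO and 3 lower in YAP-KO at 24 h, against 8.5%, 3.13% and 4.54% of all genes under that scaling; S100a8, S100a9 and Retnlg stayed beyond 2-fold in wildtype and between genotypes at 24 h (-1.52 to -2.57), and Retnlg in YAP-KO went to 0.93. Restricting the members to those above the 40th percentile removes Ngp, Mpo and Elane. It gave medians of 1.84 in wildtype, -1.05 between genotypes at 24 h and -1.08 in the responses' difference. The 60th percentile also removes Camp and Clec4e and gave 3.77, -1.63 and -2.05, and 1.08 in YAP-KO. Both filters use the 4-array mean, which includes the 24 h values, so members high at 24 h are kept more readily. Retnlg, at 4.66 and 5.02 on the 0 h arrays, passed the 60th percentile through its 24 h values. The larger medians therefore lend the differences no support. At 1.5-fold, 5 members were higher in YAP-KO at 24 h than at 0 h, 2 were lower in wildtype, 1 was higher in YAP-KO at 0 h and 1 was higher in the difference of responses. No difference of 2-fold or more changed sign under these alternatives. Without replicates no spread could be set against these values, so a median was taken as moved at 1.5-fold or more. Genes near the filter have no known floor, which limits what Ngp, Mpo and Elane can show.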
